A study of Arabidopsis thaliana with 18 samples.

Results

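Dark-grown Arabidopsis seedlings were compared after 4 h and after 2 h of light, over all nuclear and organellar genes with enough counts, in both directions. The libraries were those labelled with 4 hours and with 2 hours of light, 3 at each time, 6 of the 18 libraries in the series. All seedlings were wild type *Arabidopsis thaliana*, kept in the dark for 7 days on MS medium and then lit. PolyA RNA of the seedling was sequenced with a BGISEQ-500 protocol. The labels name no dissected organ and no accession of the plant. The series has no dark libraries collected later than 0 h, so hours of light, seedling age and time of day cannot be told apart. The labels do not say whether the 3 libraries of a time came from separate batches of seedlings, so p-values measure the spread between these libraries.

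A seedling that germinates in the dark lengthens its hypocotyl, keeps its cotyledons closed and lives on seed reserves. Light activates phytochromes and cryptochromes, which release transcription factors such as HY5 and lead to the breakdown of the PIF factors that hold the dark programme in place. In the hours that follow, hypocotyl growth slows, the clock is reset, etioplasts become chloroplasts, and sugar from photosynthesis starts to replace the reserves.

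The tables gave an expected count for each gene, which is an estimated number of reads. Summed over genes, the 6 libraries had between 22540326 and 22705846 counts and listed between 22265 and 22819 genes with any count. Levels are given in CPM, a gene's count scaled to a common library total after TMM scaling; they depend on transcript length and are compared within a gene. One library stood apart. Replicate 3 of 2 h had Pearson correlations of log2 CPM of 0.9462 and 0.9504 with the other 2 h libraries, which had 0.9857 with each other. With the 4 h libraries its correlations were between 0.9583 and 0.961, higher than with its own group. The 4 h libraries had between 0.9803 and 0.9881 among themselves. It is called here by its label, but by these correlations its profile is nearer to the other group. Whether it was collected at 2 h was not tested, and correlations with the libraries of other times were not computed. Not all genes placed it near 4 h. The clock gene *LHY* had 95.1 CPM in it, against 14.1, 16 and 20.7 CPM at 4 h. Summed Calvin cycle genes had 8101 CPM (of all counts, without TMM scaling) in it. The other 2 h libraries had 16304 and 11531 CPM, and the 4 h libraries between 15389 and 19310 CPM. Each 2 h mean and spread includes it unless stated, and counts are also given without it. In a seedling sample, more cells of a type and more RNA per cell cannot be told apart.

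Of 24951 genes listed in any library, 20569 had enough counts to be tested. Of these, 419 (2.04%) rose and 1591 (7.73%) fell at 4 h against 2 h, 2010 (9.77%) in all. A call needed a Benjamini-Hochberg adjusted p under 0.05 in edgeR's quasi-likelihood test and a log2 fold change (4 h over 2 h) of at least 1 in size. The genes that fell also did so by more: their median log2 fold change was -1.68, and 580 of them (36.5%) were past 2 in size. Those that rose had a median of 1.31, and 56 (13.4%) were past 2. These sizes are compared at unlike levels. In the group where each gene was higher, the median level was 6.92 CPM for genes that fell and 25 CPM for genes that rose. By adjusted p alone, 2278 genes (11.1%) rose and 2588 (12.6%) fell. The median over all genes was -0.00. The 3 libraries of 4 h lay above all of 2 h in 379 of the 419 genes, against 19.3% of all genes tested. They lay below all of 2 h in 1315 of the 1591, against 17.1% of all genes. The calls were made on these same libraries, so the separation follows in part from the choice and is no separate support for the calls.

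**Figure D1:**
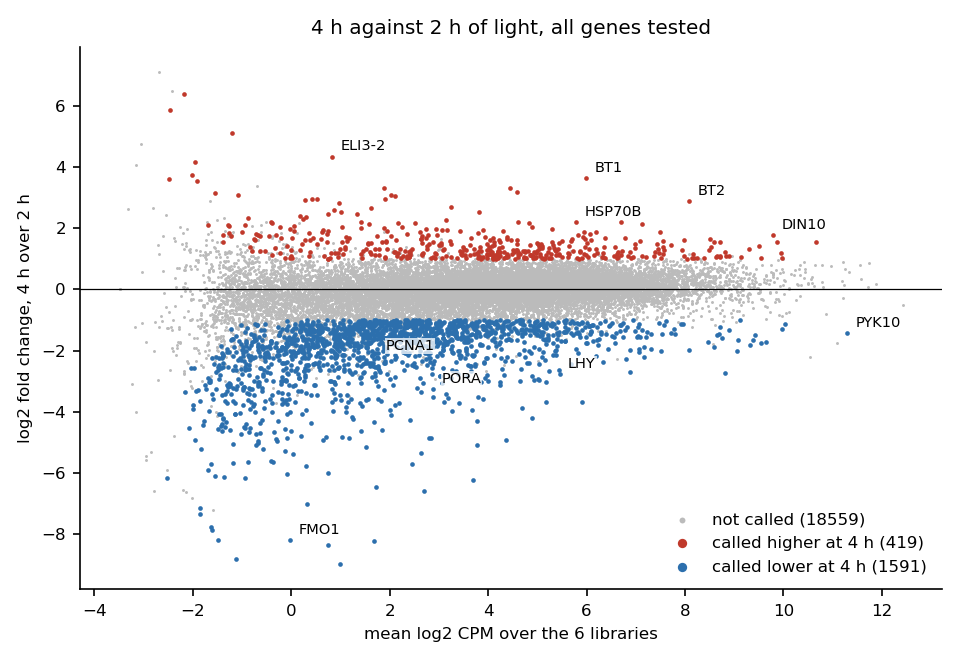
Each point is 1 of the 20569 genes tested, with its mean log2 CPM over the 6 libraries on the x axis and its log2 fold change (4 h over 2 h) on the y axis. Red points are the 419 genes called higher and blue points the 1591 called lower at 4 h; the blue points reach further from 0, down to AT5G04120 at -8.99.

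The counts moved with the library that was left out. Without replicate 3 of 2 h, 879 of the genes tested (4.22%) were called higher and 2290 (11.0%) lower, and these held 383 of the 419 and 1545 of the 1591. Replicate 3 of 2 h alone, set against the 4 h libraries with the spread of the other groups, gave 321 higher (1.53%) and 121 lower (0.576%). In that setting the sign was kept by all 419 genes that rose and by 1495 of the 1591 that fell, with medians of 1.06 and -0.86, but 73 of the 419 and 97 of the 1591 were called. Without replicate 1 of 2 h the counts were 346 and 862, and without replicate 2 they were 253 and 888. Without replicate 1 of 4 h they were 323 and 925, and without replicate 2 of 4 h 333 and 1023. Without replicate 3 of 4 h they were 438 and 1381.

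The median levels of the called genes at the other times showed 2 shapes. For each gene, the mean log2 CPM of the 12 libraries at 0, 1, 8 and 12 h was subtracted, and the median over genes was taken in each library. The 1591 genes that fell stood at 1.83, 1.78 and 0.78 in the 2 h libraries, while the 15 libraries of the other times lay between -0.37 and 0.40. In the median they were thus high at 2 h and near their level of the other times at 4 h. The 419 genes that rose lay between -0.73 and -0.42 at 0 and 1 h, and at -0.99, -1.06 and -0.63 at 2 h. They stood at 0.57, 0.64 and 0.30 at 4 h and between 0.44 and 0.60 at 8 and 12 h. In the median this is a step between 2 and 4 h that lasted. Single genes differed: 204 of the 419 were also called higher at 8 h against 1 h, 192 were not called and 23 were lower. *ASN1* and *DIN10*, described below, had means of 2070 and 2505 CPM at 0 h, above their 4 h means of 720 and 1700 CPM. The 2 h and 4 h values describe the genes as they were chosen.

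**Figure D2:**
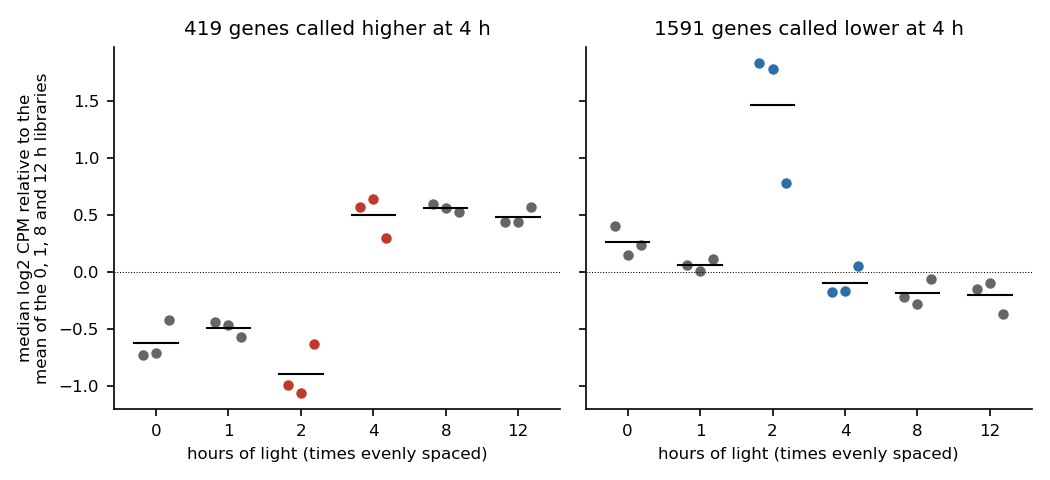
Each point is 1 library, with hours of light on the x axis and, on the y axis, the median log2 CPM of the called genes relative to their mean in the 0, 1, 8 and 12 h libraries; black bars are means of 3 libraries. The 1591 genes called lower at 4 h stood at 1.83, 1.78 and 0.78 in the 2 h libraries, and the 419 called higher stayed between 0.44 and 0.60 at 8 and 12 h.

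The flanking times, 8 h and 1 h, share no library with this comparison. At 8 h against 1 h, 3093 genes (15.0%) rose and 1657 (8.06%) fell. Of the 419 genes that rose at 4 h against 2 h, 204 (48.7%) rose and 23 (5.49%) fell at 8 h against 1 h. Of the 1591 that fell, 286 (18%) fell and 119 (7.48%) rose at 8 h against 1 h, and 1186 were not called. The median log2 fold change of these 1591 there was -0.23, against 0.03 for all genes.

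Among the lists, genes of sugar starvation held the highest share of genes that rose in the fit of all 18 libraries. These genes are switched on when cells run short of carbon, in the dark or after a loss of sugar, and serve the breakdown of amino acids, cell wall sugars and other reserves. Of 25 listed, 9 (36%) rose and none fell, against 2.04% and 7.73% of all genes. The median log2 fold change was 0.87. Without replicate 3 of 2 h, 18 rose and the median was 1.29. Without replicate 1 or 2 of 2 h, 5 and 4 rose, and without replicate 1 of 4 h 6 rose. Another list then had a higher share in 2 of these settings. Without replicate 1 of 2 h, 5 of 21 Calvin cycle genes rose, and without replicate 1 of 4 h, 8 of 30 heat shock and chaperone genes did. *ASN1*, an asparagine synthetase that stores nitrogen from broken-down amino acids, had 879, 759 and 522 CPM at 4 h, against 108, 152 and 424 CPM at 2 h (log2 fold change 1.66 ± 0.40 SE, adjusted p = 0.00935). The groups did not overlap, but replicate 3 of 2 h was close to replicate 3 of 4 h, and without replicate 2 of 2 h the adjusted p was 0.0513. *DIN10*, of the raffinose synthase family, had 2089, 1924 and 1088 CPM at 4 h, against 372, 489 and 629 CPM at 2 h (1.77 ± 0.29, adjusted p = 0.00132). Every 4 h library was above every 2 h library. *THA1*, a threonine aldolase, rose by 1.88 ± 0.37 (adjusted p = 0.00339) and the RING ubiquitin ligase gene *RZPF34* by 1.80 ± 0.23 (adjusted p = 0.000362). *DIN2*, a glycosyl hydrolase gene, rose by 1.04 ± 0.34 (adjusted p = 0.0366) and lost its call in 5 of the 6 settings without 1 library. The other 4, named after their values were seen, were *MCCA*, *IVD* and *BCAT2*, for enzymes of leucine breakdown, and the ubiquitin ligase gene *ATL8*. *MCCA* had 447, 381 and 360 CPM at 4 h, against 105, 149 and 229 CPM at 2 h (adjusted p = 0.00717), and *IVD*, *BCAT2* and *ATL8* rose by 1.06, 1.11 and 1.15 on the log2 scale.

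Both genes also had high levels in the dark and at 8 h. *ASN1* had between 1844 and 2287 CPM at 0 h and between 952 and 1789 CPM at 8 h. *DIN10* had between 1966 and 3131 CPM at 0 h and between 2351 and 4297 CPM at 8 h. The 2 h libraries were the lowest of the time course for both genes, and the 4 h libraries of *ASN1* the next lowest. At 8 h against 1 h, 2 of the 25 genes rose and none fell, with a median of 0.11.

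*BT1* and *BT2*, BTB and TAZ domain proteins that serve as scaffolds of ubiquitin ligases, moved in the same direction and by more. *BT1* (AT5G63160) had 232, 195 and 263 CPM at 4 h, against 13.6, 15.6 and 26.2 CPM at 2 h (3.64 ± 0.36, adjusted p = 6.39e-05). The groups were far apart, with the lowest 4 h library above the highest 2 h library. *BT2* (AT3G48360) had 801, 650 and 795 CPM at 4 h, against 75.2, 112 and 117 CPM at 2 h (2.88 ± 0.25, adjusted p = 1.76e-05). Both kept their call without any 1 library, with log2 fold changes from 3.46 to 3.99 and from 2.71 to 3.01. *BT2* transcripts are known to be lowered by sugar. At 8 h the means were 655 and 1615 CPM, against 286 and 488 CPM at 1 h. Both thus also rose over the flanking times (1.19 and 1.73, adjusted p = 0.00716 and 2.82e-05). At 0 h the means were 132 and 907 CPM. The 2 h means, 18.5 and 102 CPM, were the lowest of the time course. The 4 h means, 230 and 749 CPM, were below that of 1 h for *BT1* and of 0 h for *BT2*.

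The promoters of both genes are shown because both hold the core of the evening element, and that of *LHY* because this clock gene, described further on, fell far and has a G-box. They are the 250 bases before the annotated gene start in the RefSeq genome TAIR10.1, 5′ to 3′ on the strand of the gene. Capitals mark the evening element core (AATATCT on either strand), bound by REVEILLE and CCA1 factors, and the G-box (CACGTG), bound by bZIP and bHLH factors such as HY5 and the PIFs. *BT1* lies on the minus strand of chr5:25335571-25335820, *BT2* on the minus strand of chr3:17910739-17910988 and *LHY* on the minus strand of chr1:37872-38121.
BT1: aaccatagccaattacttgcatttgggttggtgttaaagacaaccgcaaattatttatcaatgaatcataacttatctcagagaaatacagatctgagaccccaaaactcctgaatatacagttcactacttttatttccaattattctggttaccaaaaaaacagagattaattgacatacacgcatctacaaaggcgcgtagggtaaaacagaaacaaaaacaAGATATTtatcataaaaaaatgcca
BT2: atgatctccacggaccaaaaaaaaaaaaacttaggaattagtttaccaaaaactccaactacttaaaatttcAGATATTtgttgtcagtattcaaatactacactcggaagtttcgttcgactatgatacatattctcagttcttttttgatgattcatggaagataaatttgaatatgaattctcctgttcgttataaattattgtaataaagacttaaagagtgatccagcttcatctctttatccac
LHY: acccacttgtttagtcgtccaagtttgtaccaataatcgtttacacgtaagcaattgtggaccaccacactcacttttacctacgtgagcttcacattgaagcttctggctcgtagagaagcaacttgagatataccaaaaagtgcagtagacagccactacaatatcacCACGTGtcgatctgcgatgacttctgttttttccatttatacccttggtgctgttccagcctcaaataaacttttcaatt

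The motif begins 25 bases before the start in *BT1* and 178 bases before it in *BT2*, and the G-box of *LHY* begins 80 bases before its start. Over windows of 300 bases, 250 before to 50 after the start, the evening element core was in 82 of 418 promoters of genes that rose (19.6%) and in 168 of 1591 of genes that fell (10.6%). Of all 20471 promoters read, 2357 (11.5%) held it. The I-box core (GATAAG), common in light-regulated promoters, was in 25.4% of the genes that rose, in 11.1% of those that fell and in 15% of all. The site II element (TGGGCC), known from genes of growing cells, was in 13.6%, 9.93% and 18.3%. The G-box was in 9.57%, 7.42% and 8.97%, and the W-box (TTGAC) in 49%, 55.1% and 51%. Not all of the 12 motifs searched are given here. Among the others, the telo-box (AAACCCTA) was in 5.74% of the genes that rose, 2.14% of those that fell and 5.39% of all. These are shares of matching letters, and no binding was measured.

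Other genes among the largest to rise were enzymes and cell wall proteins. *ELI3-2* (AT4G37990), described as cinnamyl alcohol dehydrogenase 8, had 10.8, 15.3 and 5 CPM at 4 h, against 0.211, 0 and 1.29 CPM at 2 h (4.35 ± 0.89, adjusted p = 0.0043). Its 2 h counts were 5, 0 and 32, so the size is loose: it was 6.56 without replicate 3 of 2 h and 3.77 without replicate 2, and with replicate 3 alone the adjusted p was 0.105. At 8 and 12 h its means were 0.738 and 2.7 CPM, so that 4 h was its highest time. *XTH6*, a xyloglucan endotransglucosylase/hydrolase that remodels cell walls, had 109, 89.9 and 25.1 CPM at 4 h, against 6.3, 6.86 and 9.45 CPM at 2 h (3.31 ± 0.62, adjusted p = 0.00268). *PHI-1*, a phosphate-responsive family gene, had 114, 104 and 24.9 CPM at 4 h, against 7.14, 7.49 and 11.9 CPM at 2 h (3.19 ± 0.67, adjusted p = 0.00482). In the last 2, replicate 3 of 4 h was the lowest of its group by far, yet above all 2 h libraries. The UDP-glycosyltransferase genes AT2G22590 and *UGT73C1* rose by 2.95 ± 0.25 and 2.69 ± 0.44 (adjusted p = 1.76e-05 and 0.00122). AT2G22590 was almost silent in the dark, with a mean of 0.0591 CPM at 0 h, and reached 35.9 CPM at 12 h.

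A run of 3 neighbours on chromosome 4, described as thioredoxin superfamily genes, rose together. AT4G15690 (chr4:8934296-8934961) had 13.3, 13 and 7.79 CPM at 4 h, against 1.23, 0.921 and 1.29 CPM at 2 h (3.30 ± 0.26, adjusted p = 1.64e-05). AT4G15700 and AT4G15680 rose by 3.09 ± 0.40 and 3.07 ± 0.33 (adjusted p = 0.000333 and 0.000119). Their expected counts were fractional in between 50% and 100% of the libraries, so reads were divided between copies and the 3 values are not independent. Of 42 tested genes with this description, 8 (19%) rose, these neighbours among them, and 3 (7.14%) fell, with a median of 0.27. Over all genes 2.04% rose and 7.73% fell.

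The genes with the highest FPKM among those that rose were AT3G15450, *SNG1*, AT4G37220, AT4G29905 and *DIN2*. AT3G15450, described as an aluminum-induced protein, had 1900, 1689 and 1375 CPM at 4 h, against 346, 504 and 847 CPM at 2 h (1.55 ± 0.30, adjusted p = 0.00313). *SNG1*, which makes the UV-absorbing sinapoylmalate, had 1616, 1304 and 1599 CPM at 4 h, against 538, 596 and 847 CPM at 2 h (1.19 ± 0.21, adjusted p = 0.0017). Both groups of values were separate, and in both genes replicate 3 of 2 h was the nearest to 4 h. AT4G29905, a hypothetical protein gene, rose by 1.29 ± 0.21. AT4G37220, of the WCOR413 cold acclimation family, rose by 1.09 ± 0.32 and lost its call in 3 of the 6 settings without 1 library.

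Heat shock and chaperone genes also rose, unevenly between libraries. Their proteins hold or refold damaged proteins and are made under heat and other stress. Of 30 tested, 5 (16.7%) rose and none fell, against 2.04% and 7.73% of all genes, with a median of 0.58. Without replicate 3 of 2 h 10 rose, and without replicate 1 of 4 h 8 rose. Between 2 and 3 rose without any one of the other 4 libraries. *HSP101*, a disaggregase needed for heat tolerance, had 104, 245 and 332 CPM at 4 h, against 70, 59.6 and 116 CPM at 2 h (1.47 ± 0.34, adjusted p = 0.00811). *HSP70B* had 37.7, 155 and 226 CPM at 4 h, against 32.6, 14.2 and 44.9 CPM at 2 h (2.19 ± 0.52, adjusted p = 0.00832). In both genes, replicate 1 of 4 h lay within the range of the 2 h libraries. The small heat shock genes *HSP21*, of the plastid, and *HSP17.6II* rose by 2.97 ± 0.94 and 1.90 ± 0.66 (adjusted p = 0.0326 and 0.0472), and each kept its call in 2 of the 6 settings without 1 library. *HSFA2*, a heat shock factor named after its values were seen, rose by 1.15 ± 0.25 (adjusted p = 0.00594).

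Some of these genes were higher still at 1 h. *HSP101* had between 256 and 538 CPM at 1 h and between 29.6 and 36.8 CPM at 8 and 12 h. *HSFA2* had between 85.8 and 126 CPM at 1 h and between 4.92 and 6.05 CPM at 8 and 12 h. *HSP70B* and *HSP21* were not high at 1 h, with means of 43.1 and 1.07 CPM. At 8 h against 1 h, 13 of the 30 genes fell and 3 rose, with a median of -1.15, which is the opposite direction to 4 h against 2 h. Of 27 genes described as HSP20-like chaperones, 6 (22.2%) rose at 4 h and none fell, against 2.04% and 7.73% of all genes.

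Few genes of photosynthesis passed both thresholds in this interval, though in most lists more passed the adjusted p alone. By adjusted p alone, 7 of 33 photosystem genes, 7 of 21 Calvin cycle genes and 9 of 14 photoprotection genes rose and none fell, against 11.1% of all genes higher and 12.6% lower. Of 21 antenna genes 2 rose and 1 fell, and of 23 chlorophyll synthesis genes none rose and 1 fell. Without replicate 3 of 2 h, the medians of these 5 lists were 0.15, 0.39, 0.58, -0.12 and -0.11, in the order named. In that setting no photosystem gene was called higher, and 1 Calvin cycle and 1 photoprotection gene were called lower. Of 33 photosystem and electron transport genes, 2 (6.06%) rose and none fell, with 29 of the 33 above 0 and a median of 0.32; these were *FNR1* and *FNR2*, the ferredoxin-NADP+ reductases, at 1.03 ± 0.18 and 1.04 ± 0.24. Neither was past a log2 fold change of 1 without replicate 3 of 2 h (0.91 and 0.81). Of 21 light-harvesting antenna genes, none rose and *LHCB2.3* fell. It had 29.2, 50.6 and 35.5 CPM at 4 h, against 298, 171 and 56.3 CPM at 2 h (-2.19 ± 0.47, adjusted p = 0.00519). The 2 h libraries were all higher, but spread widely. In contrast, at 8 h against 1 h all 33 photosystem genes and 17 of the 21 antenna genes rose, with medians of 2.25 and 2.06. *LHCB2.3* rose there too (3.66, adjusted p = 3.8e-05).

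Of 21 genes of Rubisco and the Calvin cycle, 1 rose and none fell, and the median was 0.60; without replicate 1 of 2 h 5 rose, and against replicate 3 of 2 h alone 13 did. *CP12-2*, which ties 2 enzymes of the cycle together in the dark, had 148, 151 and 126 CPM at 4 h, against 46.6, 36.4 and 32.1 CPM at 2 h (1.89 ± 0.25, adjusted p = 0.000375). Of 14 photoprotection genes, *NPQ1* rose and none fell. It encodes violaxanthin de-epoxidase, which makes the zeaxanthin that lets leaves discard excess light as heat. *NPQ1* had 76.2, 74.5 and 68 CPM at 4 h, against 25.8, 25 and 26.2 CPM at 2 h (1.51 ± 0.10, adjusted p = 4.1e-06). It was the evenest of these genes within each group, and its mean at 8 h was 97.6 CPM, against 33.1 CPM at 1 h. Of 23 genes of chlorophyll synthesis, none rose and *PORA* fell. *PORA*, the protochlorophyllide oxidoreductase of etioplasts, is known to be shut down by light. It had 41, 76 and 75 counts at 4 h, against 1281, 421 and 196 counts at 2 h (-3.25 ± 0.56, adjusted p = 0.0017). Its means were 124 CPM at 0 h, 10.8 CPM at 1 h, 26.5 CPM at 2 h and 2.78 CPM at 4 h. The decline was thus not steady: the 2 h mean was above that of 1 h, with overlapping libraries. The 3 libraries of 2 h spread widely, all above those of 4 h.

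Among 40 regulators of light signalling, 1 (2.5%) rose and 3 (7.5%) fell, near the 2.04% and 7.73% of all genes. Without replicate 1 of 4 h 1 fell. *GLK1*, a factor that drives genes of chloroplast development, had 10, 14.6 and 18 CPM at 4 h, against 50.9, 31.1 and 27 CPM at 2 h (-1.35 ± 0.36, adjusted p = 0.0144). *BBX31*, a B-box factor, had 5.24, 4.62 and 5.31 CPM at 4 h, against 12, 15.4 and 9.41 CPM at 2 h (-1.28 ± 0.21, adjusted p = 0.00133). *BBX20*, a B-box partner of HY5, rose by 1.03 ± 0.24 (adjusted p = 0.00846). *GLK1* lost its call without replicate 1 of 2 h and without replicate 1 of 4 h, and *BBX20* without replicate 3 of 2 h and without replicate 1 of 4 h. Of 22 clock genes, 2 (9.09%) rose and 2 (9.09%) fell. Without replicate 1 of 2 h or replicate 3 of 4 h none rose. *LHY*, a morning factor of the clock whose promoter is shown above, had 14.1, 16 and 20.7 CPM at 4 h, against 135, 117 and 95.1 CPM at 2 h (-2.77 ± 0.23, adjusted p = 1.76e-05). The groups were far apart in every library. It had between 147 and 160 CPM at 1 h and between 44 and 52.7 CPM at 8 h, so that 4 h was its lowest time. Its close relative *CCA1* had 118, 96.9 and 147 CPM at 4 h, against 110, 126 and 214 CPM at 2 h, with a log2 fold change of -0.31 (adjusted p = 0.275). *CHE*, a repressor of *CCA1*, fell by 1.33 ± 0.22 on the log2 scale. *RVE1* and *RVE2*, relatives of *LHY*, rose by 1.02 ± 0.22 and 1.06 ± 0.32. They lost their calls in 3 and 5 of the 6 settings without 1 library. Their 4 h means, 143 and 71.5 CPM, were below their 1 h means of 439 and 435 CPM.

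Genes of the cell cycle and histones held the highest share of genes that fell among the lists. They copy DNA and pack it, and their transcripts rise in dividing and in endoreduplicating cells. Of 68 tested, 26 (38.2%) fell and 1 rose, against 7.73% and 2.04% of all genes, with a median of -0.79. Without replicate 3 of 2 h 30 fell, and over the libraries left out the count ran from 20 to 30. One of the 26, *BRU6*, is a GH3 auxin gene that entered the list through a synonym. *PCNA1*, the sliding clamp of DNA polymerase, had 1.76, 1.64 and 1.35 CPM at 4 h, against 11, 7.11 and 3.74 CPM at 2 h (-2.20 ± 0.53, adjusted p = 0.00979). *MCM3*, a subunit of the replicative helicase, had 3.52, 3.58 and 3.7 CPM at 4 h, against 18.4, 14.1 and 6.83 CPM at 2 h (-1.86 ± 0.38, adjusted p = 0.00394). *HTA6*, a histone H2A, had 5.42, 5.4 and 6.61 CPM at 4 h, against 34.1, 26.2 and 14.9 CPM at 2 h (-2.11 ± 0.30, adjusted p = 0.000736). In each gene the 4 h libraries were nearly alike, the 2 h libraries were all higher, and replicate 3 was the lowest of them.

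The helicase fell as a whole. *MCM2*, *MCM3*, *MCM4*, *MCM5*, *MCM6* and *PRL*, which is *MCM7*, had log2 fold changes of -1.70, -1.86, -1.70, -1.49, -1.66 and -1.72. So did the origin recognition genes *ORC1B*, *ORC4* and *ORC6*, at -2.20, -1.17 and -1.67, and *CDT1A*, which loads the helicase, at -1.58. Of the genes of ribonucleotide reductase, which supplies DNA precursors, *RNR1* and *TSO2* fell by 1.03 and 1.26 on the log2 scale, while *RNR2A* rose by 1.05 (adjusted p = 0.0117). *RNR2A* was the gene of the list called higher (10 of the 68 were above 0), with 29.4, 31.7 and 28.7 CPM at 4 h, against 13.7, 12.8 and 16.8 CPM at 2 h. The genes of this paragraph other than *MCM3* and *PRL* were named after their values were seen. At 8 h against 1 h, none of the 68 genes fell and 11 rose, with a median of 0.51.

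The promoters of *MCM2* and *MCM3* are shown because E2F factors, which switch on genes of DNA replication, are known to bind sites of 2 related forms in such genes. Both forms, and a further motif given below, were added after the calls were seen. Capitals mark TTCCCGC and TTGGCGC on either strand. *MCM2* is on the plus strand of chr1:16969964-16970213 and *MCM3* on the minus strand of chr5:18773707-18773956 (RefSeq, TAIR10.1).
MCM2: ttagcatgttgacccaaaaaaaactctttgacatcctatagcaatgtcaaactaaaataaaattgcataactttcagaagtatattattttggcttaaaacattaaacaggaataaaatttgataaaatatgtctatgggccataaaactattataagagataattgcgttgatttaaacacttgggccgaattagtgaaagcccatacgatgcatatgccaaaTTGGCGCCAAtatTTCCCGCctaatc
MCM3: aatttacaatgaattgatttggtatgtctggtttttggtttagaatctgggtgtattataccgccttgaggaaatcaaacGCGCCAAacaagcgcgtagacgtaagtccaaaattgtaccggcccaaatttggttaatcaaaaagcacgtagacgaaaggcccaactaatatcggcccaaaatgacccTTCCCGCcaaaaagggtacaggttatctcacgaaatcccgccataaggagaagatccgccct

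TTCCCGC begins 13 bases before the start in *MCM2* and 62 bases before it in *MCM3*. In *MCM2* the other form occurs once on each strand, with overlapping letters. TTCCCGC was in 12 of the 26 promoters of cell cycle genes that fell (46.2%), in 21 of the 68 of the whole list (30.9%) and in 317 of all 20471 promoters (1.55%). TTGGCGC was in 4 of the 26 (15.4%), in 5 of the 68 and in 200 of all promoters (0.977%). Over all 1591 genes that fell, the shares were 2.83% and 1.57%. The further motif added, the mitosis-specific activator core (AACGG), was in 53.8% of the 26, 47.1% of the 68 and 25.9% of all promoters.

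**Figure D3:**
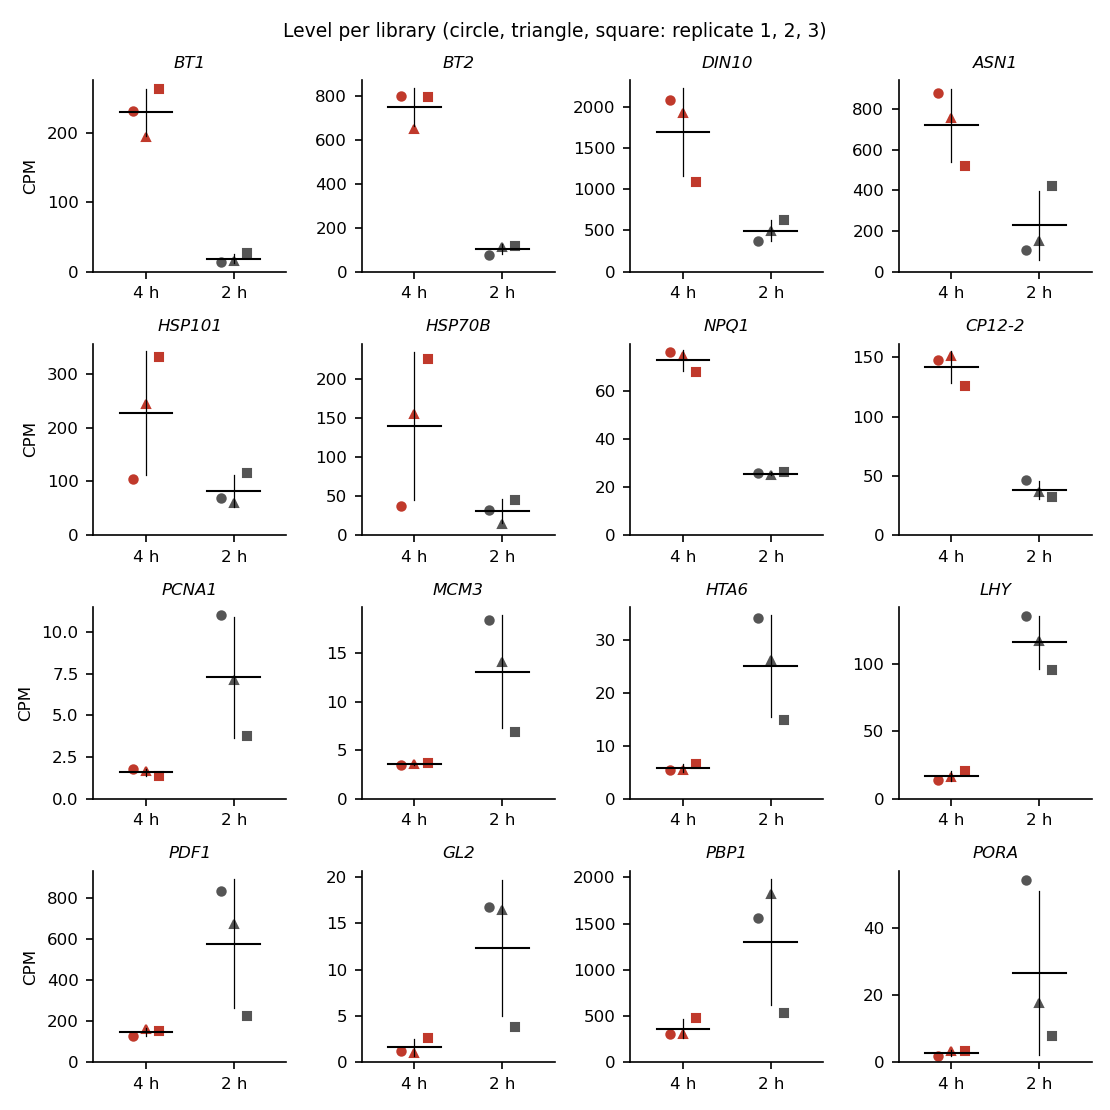
CPM of 16 genes (y axes, from 0) in the 3 libraries of 4 h, in red, and the 3 of 2 h, in grey; horizontal bars are means and vertical lines ± 1 SD. In *BT1*, *NPQ1* and *LHY* the groups lie far apart, in *HSP101* and *HSP70B* replicate 1 of 4 h (circle) lies among the 2 h libraries, and in *PCNA1*, *PDF1*, *GL2* and *PBP1* replicate 3 of 2 h (square) is the 2 h library nearest to 4 h.

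More genes of growth and the cell wall fell than rose, as over all genes, of which 7.73% fell and 2.04% rose. Expansins loosen walls, XTH enzymes cut and rejoin xyloglucan, and SAUR proteins promote cell expansion downstream of auxin. Of 48 expansin and XTH genes, 14 (29.2%) fell and 5 (10.4%) rose, with a median of -0.68. Both shares were above those of all genes. Of these 48, 4 fell without replicate 1 of 4 h and 8 without replicate 3 of 4 h. Without replicate 1 and 2 of 2 h, 6 and 8 fell. With replicate 3 of 2 h alone against the 4 h libraries, their median was 0.05. *EXPA5* had 2.69, 2.03 and 7.74 CPM at 4 h, against 45.4, 38 and 9.2 CPM at 2 h (-2.89 ± 0.69, adjusted p = 0.0088). *EXPB1* had 0.264, 0.345 and 1.35 CPM at 4 h, against 19.8, 12.9 and 2.77 CPM at 2 h (-4.17 ± 1.00, adjusted p = 0.00932). Replicate 3 of 4 h was the highest and replicate 3 of 2 h the lowest of their groups in both genes, without overlap. On the other side, *TCH4*, a touch-induced XTH, had 353, 380 and 180 CPM at 4 h, against 67.7, 64.4 and 73.1 CPM at 2 h (2.15 ± 0.45, adjusted p = 0.00478).

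Of 100 Aux/IAA, SAUR and GH3 genes, 21 (21%) fell and 2 rose, with a median of -0.55. The shares of all genes were 7.73% and 2.04%. Without replicate 3 of 2 h 28 fell, and without replicate 1 of 4 h 12 fell. Between 14 and 18 fell without any one of the others. *IAA19*, an auxin-induced repressor of auxin response, had 2.03, 2.94 and 3.48 CPM at 4 h, against 13.1, 10.5 and 5.23 CPM at 2 h (-1.77 ± 0.45, adjusted p = 0.0126). Its means were 15.5 CPM in the dark, 4.19 CPM at 1 h, 9.61 CPM at 2 h and 0.865 CPM at 12 h. *GH3.3*, which conjugates auxin, had 1.45, 1.42 and 1.61 CPM at 4 h, against 6.55, 5.69 and 7.19 CPM at 2 h (-2.11 ± 0.36, adjusted p = 0.00161). The 3 libraries of 2 h were alike here, replicate 3 included. The neighbouring *SAUR19*, *SAUR20*, *SAUR22*, *SAUR23* and *SAUR24*, named after their values were seen, fell by between 1.95 and 3.27 on the log2 scale, with fractional counts in several. The SAUR-like gene AT2G37030 rose by 2.81 ± 0.55 (adjusted p = 0.00323). *PBS3*, listed with the GH3 genes and known for salicylic acid synthesis, had 0.969, 0.173 and 0.087 CPM at 4 h, against 15.1, 12.3 and 7.8 CPM at 2 h. Its log2 fold change was -4.83 ± 1.31 (adjusted p = 0.0167), and it lost its call without replicate 2 or 3 of 4 h.

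Most of the 10 largest falls were in genes with few counts at 4 h. *FMO1*, a monooxygenase of systemic resistance, had 1, 1 and 0 counts at 4 h, against 363, 283 and 76 counts at 2 h. AT1G26390, of the berberine enzyme family, had 10, 2 and 0 counts at 4 h, against 1747, 1313 and 831 counts at 2 h. *CYP71A12*, a cytochrome P450 of indole defence compounds, had 18, 16 and 10 counts at 4 h, against 2068, 1536 and 910 counts at 2 h. The fitted log2 fold changes, -8.19 ± 1.43, -8.23 ± 1.71 and -6.60 ± 1.55, depend on the prior count where the 4 h counts are this low. The adjusted p-values were 0.00234, 0.00459 and 0.00819. All 3 genes also had counts in replicate 3 of 0 h, at 6.2, 60 and 85.4 CPM, while the other 0 h libraries lay between 0 and 1.01 CPM.

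The phosphoglycerate mutase family gene AT5G04120 had 0, 0 and 7 counts at 4 h, against 1950, 1875 and 71 counts at 2 h (adjusted p = 0.00113). The lipid-transfer family genes AT5G46900 and AT5G46890 lie next to each other on chromosome 5. Their expected counts were fractional in most libraries, so their values may not be independent. AT5G46900 had 15, 18 and 127 counts at 4 h, against 5951, 5999 and 510 counts at 2 h (-6.23 ± 1.17, adjusted p = 0.00264). In these genes replicate 3 of 2 h was far below its group but above every 4 h library. The other genes of the 10 largest falls were the cupin gene AT5G38910, the lectin kinase gene AT2G29220, the C2 domain gene AT1G22610 and the extensin-like gene AT1G26240, at -8.36, -7.01, -6.46 and -6.01. AT1G26240 lost its call without replicate 2 or 3 of 4 h, and AT5G46890 in 4 of the 6 settings without 1 library.

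The genes with the highest FPKM among those that fell were *PYK10*, *PIP2B*, AT2G37130, *PBP1* and AT2G43150. *PYK10*, a beta-glucosidase of the ER bodies of seedlings and roots, had 1566, 1442 and 1944 CPM at 4 h, against 5535, 6107 and 1689 CPM at 2 h (-1.43 ± 0.36, adjusted p = 0.0113). *PBP1*, a lectin that binds PYK10, had 312, 306 and 480 CPM at 4 h, against 1562, 1814 and 529 CPM at 2 h (-1.83 ± 0.33, adjusted p = 0.0022). Replicate 3 of 2 h lay within the 4 h range for *PYK10* and just above it for *PBP1*. Against the 4 h libraries, that library alone gave -0.04 (adjusted p = 0.962) and -0.53 (adjusted p = 0.281). *PIP2B*, an aquaporin of the plasma membrane, fell by 1.29 ± 0.32 on the log2 scale, and the peroxidase gene AT2G37130 by 1.73 ± 0.41. The extensin-like gene AT2G43150 fell by 1.48 ± 0.40, with replicate 3 of 2 h within the 4 h range, and kept its call in 3 of the 6 settings without 1 library. *PYK10*, *PIP2B* and AT2G37130 lost theirs without replicate 2 of 2 h (adjusted p = 0.0615, 0.0555 and 0.0508).

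Protein families were also counted by the deposited description, for each of the 89 descriptions with at least 20 tested genes. Of 48 genes described as peroxidases, 19 (39.6%) fell and none rose, with a median of -0.96. Mannose-binding lectins had 9 of 23 (39.1%) lower, lipid-transfer and 2S albumin proteins 17 of 49 (34.7%), pectin lyase-like proteins 15 of 47 (31.9%) and histones 9 of 30 (30%). None of these lectins, lipid-transfer proteins or histones rose, and 1 of the pectin lyase-like proteins did. Cysteine and histidine-rich C1 domain proteins had 23 of 84 (27.4%) lower, and leucine-rich repeat kinases 21 of 97 (21.6%). These shares stand against 7.73% of all genes. The families were chosen after counting, and 18 of the 89 had a share of 21.6% or more. Among the largest families, 14 of 264 protein kinases (5.3%) and 13 of 217 RING/U-box proteins (5.99%) fell.

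**Figure D4:**
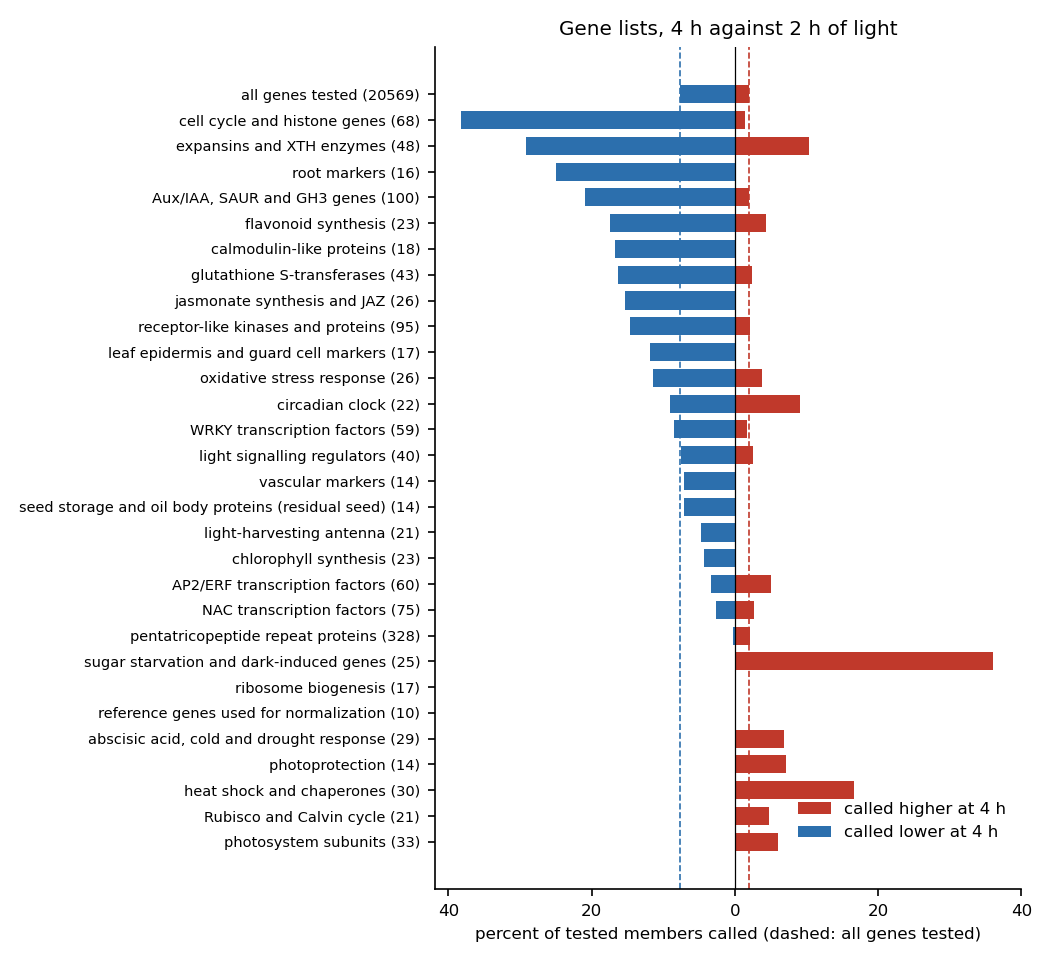
Percent of the tested members of each list (number in brackets) called higher (red, to the right) or lower (blue, to the left) at 4 h against 2 h; dashed lines are the shares of all genes tested, 2.04% and 7.73%. Cell cycle and histone genes had 38.2% lower, expansin and XTH genes 29.2% lower, and sugar starvation genes 36% higher; the ribosomal protein lists are left out.

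Genes of stress and hormone signalling moved in smaller shares. Of all genes, 2.04% rose and 7.73% fell. Of 26 jasmonate genes, 4 (15.4%) fell and none rose, with a median of -0.43; 2 fell without replicate 1 of 2 h and 6 without replicate 3. *MYC2*, the central transcription factor of jasmonate response, had 32.5, 32.1 and 49.3 CPM at 4 h, against 110, 144 and 81.8 CPM at 2 h (-1.56 ± 0.33, adjusted p = 0.00486). The synthesis genes *OPCL1*, *AOC3* and *AOC4* fell by 1.43, 1.25 and 1.06 on the log2 scale. Of 29 genes of abscisic acid, cold and drought response, 2 (6.9%) rose and none fell. Without replicate 3 of 2 h 8 rose, and the median was 0.76 in place of 0.32. None rose without replicate 1 or 2 of 2 h or replicate 3 of 4 h. *LTI30*, a dehydrin, had 324, 289 and 531 CPM at 4 h, against 76, 91.8 and 249 CPM at 2 h (1.46 ± 0.37, adjusted p = 0.0126). *RD26*, a NAC factor of abscisic acid response, rose by 1.11 ± 0.33. Replicate 3 of 2 h was the highest of its group in both, and each lost its call in some settings without 1 library.

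Of 43 glutathione S-transferase genes, 7 (16.3%) fell and 1 rose; 7 also fell without replicate 3 of 2 h, and 2 or 3 without any one of the other libraries. Of 26 genes of oxidative stress, 3 (11.5%) fell and 1 (3.85%) rose, against 7.73% and 2.04% of all genes. Without any 1 library other than replicate 3 of 2 h, 1 fell. *FSD1*, an iron superoxide dismutase, had 8.41, 6.65 and 5.48 CPM at 4 h, against 96.5, 55.6 and 27.5 CPM at 2 h (-3.13 ± 0.51, adjusted p = 0.00124). The groups did not overlap, and *FSD1* kept its call without any 1 library. Of 95 receptor-like kinases and proteins, 14 (14.7%) fell and 2 rose. Of these 95, 17 fell without replicate 3 of 2 h, and between 6 and 9 without any one of the others. Of 18 calmodulin-like genes 3 (16.7%) fell, against 7.73% of all genes, among them *CML42* at -1.55 ± 0.29 (adjusted p = 0.00255). Of 23 flavonoid genes, 4 fell and 1 rose; 8 fell without replicate 3 of 2 h and 1 without replicate 1 of 2 h. *GL3*, a bHLH factor of trichomes and anthocyanin, had 0.352, 1.08 and 1.48 CPM at 4 h, against 7.86, 7.74 and 2.61 CPM at 2 h (-2.64 ± 0.59, adjusted p = 0.00648). *MYB12*, the activator of flavonol genes, had 14.5, 9.71 and 11 CPM at 4 h, against 4.78, 6.4 and 1.21 CPM at 2 h (1.51 ± 0.40, adjusted p = 0.0152).

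Transcription factor families had few calls, and their number changed with the library left out. Without replicate 3 of 2 h, 6 WRKY, 10 AP2/ERF and 5 NAC genes rose, and 7, 4 and 4 fell. Without replicate 2 of 2 h, 0, 2 and 0 rose, and 5, 0 and 0 fell. Of 59 WRKY genes, 5 (8.47%) fell and 1 (1.69%) rose, against 7.73% and 2.04% of all genes, with *WRKY31* at -1.56 ± 0.38 and *WRKY72* at -1.38 ± 0.28. Of 60 AP2/ERF genes, 3 (5%) rose and 2 (3.33%) fell. *DREB2C*, a factor of drought and heat response, had 13.9, 19.6 and 12.7 CPM at 4 h, against 3.55, 3.01 and 5.23 CPM at 2 h (1.97 ± 0.25, adjusted p = 0.000304). Every 4 h library was above every 2 h library. Of 75 NAC genes, 2 rose and 2 fell. The NAC genes had 2.67% in each direction.

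Of 328 pentatricopeptide repeat genes, whose proteins process organelle RNA, 7 (2.13%) rose, near the 2.04% of all genes, and 1 fell, with a median of 0.18; 20 rose without replicate 3 of 2 h, 3 without replicate 2 of 2 h and 4 without replicate 2 of 4 h. By adjusted p alone 47 rose and 1 fell, against 11.1% and 12.6% of all genes, and 245 of the 328 were above 0. *ECB2*, needed for RNA editing in plastids, had 34.5, 40.8 and 25 CPM at 4 h, against 8.96, 9.04 and 14.3 CPM at 2 h (1.63 ± 0.30, adjusted p = 0.00257). At 8 h against 1 h, 176 of the 328 rose and 3 fell. Of 17 genes of ribosome biogenesis, none was called, and the median was 0.33; *NRPA1*, of RNA polymerase I, had the smallest p, with a log2 fold change of 0.80 ± 0.20 (adjusted p = 0.0116). The lists of ribosomal proteins made from text patterns held other genes: 104 of the 320 members of the cytosolic list, *BT1* and *BT2* among them, are not described as ribosomal, and the plastid list also took in disease resistance genes. In these lists 4 and 0 rose, and 11 and 1 fell. Of 335 tested genes described as ribosomal proteins, a count made after the lists were seen, 2 rose and none fell, with a median of -0.14. Of 10 reference genes often used for normalization none was called, and their median was 0.02.

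Levels of markers of particular cells were also compared. Of 16 tested root markers, 4 (25%) fell and none rose, against 7.73% and 2.04% of all genes, with a median of -0.74. Summed over the 19 listed, the level was 440, 404 and 471 CPM (of all counts, without TMM scaling) at 4 h, against 827, 795 and 459 CPM at 2 h. The replicate of 2 h that stood apart was thus level with the 4 h libraries. The sum leans on *HCT*, which had the most counts of the list in every library. It had 4153, 3536 and 3966 counts at 4 h, against 8040, 7280 and 4167 counts at 2 h. Markers of root hairs were low at both times and uneven. *EXPA7* had 0, 3 and 4 counts at 4 h, against 24, 26 and 18 counts at 2 h, and *COBL9* had 2, 0 and 3 counts at 4 h, against 63, 39 and 29 counts at 2 h. *RSL4* had 7, 19 and 15 counts at 4 h, against 18, 17 and 5 counts at 2 h, with overlapping groups, and *XTH14* had 67, 44 and 41 counts at 4 h, against 85, 136 and 61 counts at 2 h. *GL2*, of root epidermis and trichomes, had 1.19, 0.993 and 2.65 CPM at 4 h, against 16.8, 16.4 and 3.82 CPM at 2 h (-2.93 ± 0.52, adjusted p = 0.00192). Markers of the root's inner layers were far from 0 at both times, with *SCR* at 1847, 2052 and 1831 counts at 4 h, against 2471, 2573 and 1999 counts at 2 h (-0.23, adjusted p = 0.142). The endodermal *CASP1* had 1472, 1221 and 1754 counts at 4 h, against 3325, 3139 and 1649 counts at 2 h, and *CASP2* 779, 701 and 1061 counts at 4 h, against 1970, 1982 and 743 counts at 2 h. For both, replicate 3 of 2 h was level with or below the 4 h libraries (adjusted p = 0.165 and 0.213).

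Of 17 markers of epidermis and guard cells, 2 (11.8%) fell, *PDF1* and *PDF2*, against 7.73% of all genes. The guard cell gene *FAMA* had 124, 156 and 94 counts at 4 h, against 140, 88 and 103 counts at 2 h, with overlapping groups. *PDF1*, made in the outer cell layer of the shoot, had 126, 162 and 153 CPM at 4 h, against 831, 674 and 225 CPM at 2 h (-1.97 ± 0.46, adjusted p = 0.0084). The summed level of these markers was 2090, 1890 and 2679 CPM at 4 h, against 4004, 4253 and 3101 at 2 h. That of 14 vascular markers was 336, 351 and 419 at 4 h, against 578, 590 and 401 at 2 h. Of these 14, 1 (7.14%) fell, near the 7.73% of all genes, and 5 fell without replicate 3 of 2 h. The 1 was *XCP1*, a peptidase of xylem vessels (-1.66 ± 0.56, adjusted p = 0.0424), which kept its call in 2 of the 6 settings without 1 library. The phloem gene *AHA3* had 1998, 1914 and 1851 counts at 4 h, against 1464, 1093 and 1746 counts at 2 h (log2 fold change 0.50, adjusted p = 0.12). The list of 15 seed genes also holds the enzyme genes *ICL*, *MLS*, *ACX2* and *PKT3*, which are not storage or oil body genes. Of 14 tested, 1 (7.14%) fell, 12 were below 0 and 2 above. The list's summed level was 4490, 7030 and 2903 at 4 h, against 14612, 5217 and 17715 at 2 h. The sums spread widely within each group, and here replicate 2 of 2 h was the low one. Members differed: the storage gene *CRA1* had 19766, 31708 and 6655 counts at 4 h, against 101007, 28740 and 157590 at 2 h. *PKT3* had 17843, 18056 and 18391 counts at 4 h, against 9200, 10844 and 19890 at 2 h. The part of these shifts in the other genes that fell was not tested.

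**Figure D5:**
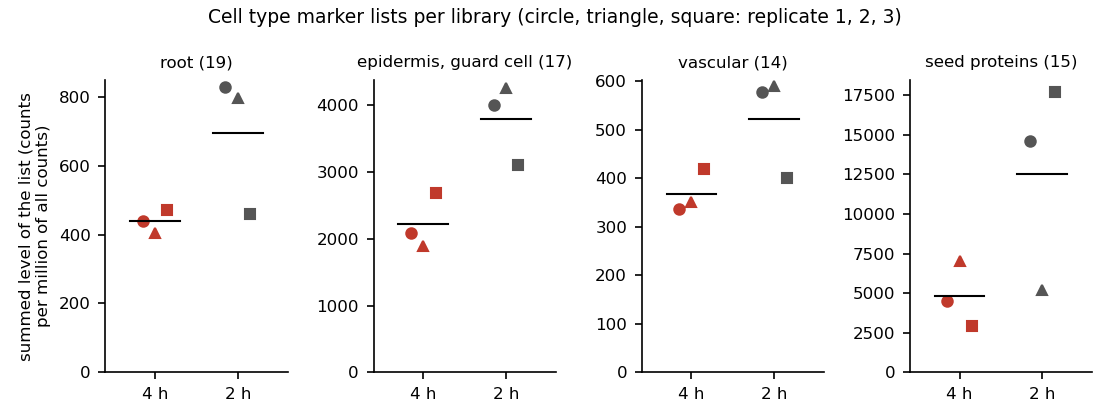
Summed level of 4 marker lists (y axes, CPM of all counts, from 0) in the 3 libraries of 4 h, in red, and of 2 h, in grey; bars are means. Replicate 3 of 2 h (square) lies near the 4 h libraries for root markers at 459 and for vascular markers at 401. In the panel of seed proteins it is the highest library, at 17715. *HCT* holds the most counts of the root list, and the seed panel also sums the enzyme genes *ICL*, *MLS*, *ACX2* and *PKT3*.

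Plastid and mitochondrial genes made up a very small share of the polyA libraries. At 4 h, plastid genes held 0.00933% ± 0.00129 of counts, against 0.00916% ± 0.00296 at 2 h (mean ± SD of 3 libraries; exact two-sided permutation test, p = 1). At 4 h, mitochondrial genes held 0.0064% ± 0.00104, against 0.00849% ± 0.00298 at 2 h (mean ± SD of 3 libraries; exact two-sided permutation test, p = 0.3). With 3 libraries against 3, the smallest p possible is 0.1.

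Some of the genes named above are less certain as single loci. *SNG1*, *FNR1*, *NPQ1*, *LHCB2.3*, *HSP101*, *MYC2*, *THA1*, *GL2*, *PIP2B*, *PYK10* and *PBP1* had fractional expected counts in most libraries. So did *UGT73C1*, *GH3.3*, *DREB2C*, *AOC3*, AT1G22610, AT5G46900 and AT5G46890. Several of these genes overlap another listed locus. The strand setting of the counting is not given in the sources used here, so reads of overlapping genes cannot be told apart.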

How the data were processed

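PolyA RNA of Arabidopsis seedlings was sequenced in 18 libraries, 3 at each of 6 times. The deposited gene tables give expected counts, which need not be whole, and FPKM, per the file headers; the submitters' processing notes name RSEM, Bowtie2 and HISAT2 without roles or versions. Genes without a row in a library were set to 0. Locus coordinates are those of the deposited descriptions, which equalled RefSeq TAIR10.1 for 24745 of 24746 genes.

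Expected counts were rounded and analysed with edgeR 4.0.16 (R 4.3.3): filterByExpr kept 20569 of 24951 genes, libraries were scaled with TMM, and a single quasi-likelihood model, with each time as a group, was fitted to all 18 libraries. The common biological coefficient of variation was 0.218. A standard error is the size of the log2 fold change divided by the square root of F, an approximation. No libraries of a time agreed within sampling noise. The steps were tested on simulated counts. Other settings used limma 3.58.1 and DESeq2 1.42.0.

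The comparison, the 31 gene lists and the motifs were chosen with earlier results of these data known. Lists came from loci whose names matched RefSeq, or from symbol and text patterns, and were described by counts and medians without a test. Named genes were, in each direction, the 10 largest changes without overlap and at least 10 CPM, the 5 called genes of highest FPKM, and up to 4 called members of each list at 5 CPM or more, or the smallest p where none was called; others are marked as chosen after their values were seen. Transcript tables were not used.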

Additional observations from a re-analysis of the deposited data

How the results depend on the processing

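Called higher and lower genes numbered 419 and 1591. With RLE, upper quartile or library size scaling, another filter, DESeq2, limma-voom or the genes of fractional counts left out, both counts stayed within 1.5 times. Only the 6 libraries gave 237 higher and 1086 lower. Among the named genes that lost their call there were *HSP101*, *ASN1*, *PYK10* and *MYB12* (adjusted p = 0.0778, 0.083, 0.086 and 0.0997). Without replicate 3 of 2 h this fit gave 869 and 2498. Replicate 3 of 2 h alone gave 121 lower. limma on log2(FPKM + 1) gave 258 and 938, adjusted p alone 2278 and 2588, and a test against a log2 fold change of 1 (glmTreat) 21 and 77. Leaving out 1 library gave 253 to 879 higher and 862 to 2290 lower.

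Replicate numbers were taken from the sample titles. Deviations of same-numbered libraries from their group means correlated at -0.0714, -0.354 and -0.173. Deviations of differently numbered libraries were not compared, so whether libraries were paired cannot be told from these values. Some deposited names carry other numbers, which were not tried. With the replicate block, all 18 libraries gave 443 and 1445, and the 6 alone 14 and 55.

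The 105 named genes gave 1860 values under 18 settings: 1619 kept their side of the threshold, 240 lost it and 1 gained it, with no change of sign, and 13 genes kept it in every setting. With replicate 3 of 2 h alone, a setting chosen after the data were seen and not among the 18, *tny*, *GSTU25*, *UGT78D1* and *GAPC2* changed sign (0.51, 0.12, 0.34 and 0.05), and 22 genes kept their call. The fit called 7614 genes at an unadjusted p under 0.05. The difference in the plastid share (4 h minus 2 h, percent points) changed sign with the library left out, from -0.00114 to 0.00178. At low counts the size of a fall was limited by depth. Dixon's test was not applied to groups of 3.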
